A study of Mus musculus with 56 samples.

Results

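Open chromatin that lay inside introns, far from any promoter, was examined in 56 bulk ATAC-seq libraries of mouse granulocyte-monocyte progenitor (GMP) clones. Members were autosomal peaks whose center was more than 10 kb from every protein-coding transcription start site (TSS) and fell within the body of a protein-coding gene but outside its exons. They also had to hold 100 or more raw counts summed over the libraries. The rule found 5275 members among 297361 peaks, and among the 31448 peaks of any kind that reached the same total. Genomic position alone gave 93619 autosomal distal intronic peaks, of which 88344 stayed under 100 counts, so the members are the more accessible ones and held 31.6% of the counts of that class. The total of 100 counts was the only measured value in the rule. At its edge, 57 members had exactly 100 counts, 296 had 100 to 104, and 407 peaks just outside had 95 to 99.

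In ATAC-seq a transposase inserts sequencing adapters into accessible DNA, so the count in a peak measures how open it was. Each library came from 1000 cells of a line that had been grown from a single GMP of a Tet2 fl/fl mouse and held in an undifferentiated state by a Hoxb8-ER retrovirus in 0.5 uM beta-estradiol. Each of the 28 clones gave a pair of lines, transduced with an integrase-defective lentivirus at a multiplicity of infection of 200. The virus carried Cre in the Tet2 KO line and GFP in its control. Controls therefore shared the floxed alleles, a viral transduction and Hoxb8-ER with the KO lines. Deletion of Tet2 was not checked from these peak counts, so genotypes are as labelled. SCF clones (24, grown in 100 ng/ml stem cell factor) were numbered 1 to 5, 7 to 18 and 23 to 29. GM-CSF clones (4, grown in 10 ng/ml granulocyte-macrophage colony-stimulating factor) were numbered 19 to 22. The titles of clones 20 to 22 name SCF while their treatment field names GM-CSF, and they were placed by treatment. No clone was grown in both cytokines and each cytokine has its own clones, so cytokine and clone of origin cannot be told apart. Per the methods the clones came from a Tet2 fl/fl mouse, while the lines of the study as a whole came from mice of both sexes, and mice were 8 to 12 weeks old. Which mouse gave which clone was not given in the sources used here.

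Introns of mammalian genes hold many enhancers, short stretches where lineage transcription factors bind and which can act on the host gene or on another gene across long distances. Enhancer accessibility usually follows the stage and lineage of a blood cell more closely than promoter accessibility does. TET2 oxidizes 5-methylcytosine, which starts its removal, and much of this takes place at distal elements. SCF signals through KIT and keeps progenitors immature, whereas GM-CSF signals through CSF2RB, JAK2 and STAT5 and carries myeloid cells toward granulocytes and macrophages. PU.1 and C/EBP proteins drive myeloid enhancers, and GATA2, RUNX1 and ERG are factors of early progenitors.

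The members that the results turn on are shown as the 200 bases around the peak center, read from the plus strand of the RefSeq GRCm38.p6 genome, the assembly of mm10. Capitals mark words from a fixed set on either strand: AGATAA for GATA factors, TGTGGT for RUNX, TTGNNNAA for C/EBP, GAGGAA for PU.1 and TGANTCA for AP-1, with words for STAT and IRF also searched. A word is a description of the letters and not evidence of binding. The first set holds the leading members that were more open in GM-CSF than in SCF control lines.
Hivep3 (chr4:119966806-119967005): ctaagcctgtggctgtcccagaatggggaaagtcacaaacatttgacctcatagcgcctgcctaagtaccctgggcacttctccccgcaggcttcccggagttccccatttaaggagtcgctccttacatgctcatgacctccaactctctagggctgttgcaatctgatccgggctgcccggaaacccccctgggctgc
Fam222b (chr11:78126834-78127033): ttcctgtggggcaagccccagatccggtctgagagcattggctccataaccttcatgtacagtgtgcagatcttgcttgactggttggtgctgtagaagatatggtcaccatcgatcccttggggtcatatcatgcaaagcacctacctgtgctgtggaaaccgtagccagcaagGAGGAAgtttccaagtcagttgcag
Man2b2 (chr5:36810694-36810893): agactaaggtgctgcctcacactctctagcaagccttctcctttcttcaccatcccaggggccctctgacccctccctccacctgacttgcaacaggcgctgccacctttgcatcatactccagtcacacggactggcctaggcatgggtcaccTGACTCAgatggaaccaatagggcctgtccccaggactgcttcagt

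The second set holds the leading members that were less open in GM-CSF lines, and the Mdga1 and Gse1 windows each carry a GATA word.
Mdga1 (chr17:29860026-29860225): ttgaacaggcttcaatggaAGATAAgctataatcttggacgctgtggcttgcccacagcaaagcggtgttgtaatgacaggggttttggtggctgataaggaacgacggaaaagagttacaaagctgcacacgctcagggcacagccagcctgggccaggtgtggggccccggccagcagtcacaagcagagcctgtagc
Gse1 (chr8:120370019-120370218): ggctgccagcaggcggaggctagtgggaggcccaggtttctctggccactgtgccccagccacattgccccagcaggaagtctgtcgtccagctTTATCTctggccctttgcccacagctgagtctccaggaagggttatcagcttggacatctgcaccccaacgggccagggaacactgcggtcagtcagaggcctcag
Egln3 (chr12:54187857-54188056): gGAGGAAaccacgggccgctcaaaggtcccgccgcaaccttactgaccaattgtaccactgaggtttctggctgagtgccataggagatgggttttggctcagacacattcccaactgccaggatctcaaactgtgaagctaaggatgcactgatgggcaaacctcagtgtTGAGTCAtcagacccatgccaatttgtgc

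The third set holds the member called higher after Tet2 loss and the 3 called lower with the smallest p-values.
Acer1 (chr17:56958125-56958324): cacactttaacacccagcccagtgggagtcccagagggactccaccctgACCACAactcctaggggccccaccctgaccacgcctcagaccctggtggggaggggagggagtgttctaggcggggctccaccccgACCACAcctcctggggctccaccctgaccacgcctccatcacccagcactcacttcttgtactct
Ksr1 (chr11:79119040-79119239): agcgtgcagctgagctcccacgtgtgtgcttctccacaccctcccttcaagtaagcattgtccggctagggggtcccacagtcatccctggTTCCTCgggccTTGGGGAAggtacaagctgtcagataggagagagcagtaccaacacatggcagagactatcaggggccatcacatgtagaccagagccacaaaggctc
Fam222a (chr5:114588037-114588236): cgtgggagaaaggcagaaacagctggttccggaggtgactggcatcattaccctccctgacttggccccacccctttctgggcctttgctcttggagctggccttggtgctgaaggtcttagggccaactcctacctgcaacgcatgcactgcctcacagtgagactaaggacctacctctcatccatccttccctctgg
Uggt1 (chr1:36162777-36162976): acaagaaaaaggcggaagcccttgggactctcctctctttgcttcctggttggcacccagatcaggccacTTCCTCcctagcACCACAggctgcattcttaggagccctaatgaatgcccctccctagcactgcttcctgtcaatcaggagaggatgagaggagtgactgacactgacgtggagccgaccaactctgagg

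The 5275 members lay in 2501 host genes, of which 1353 held a single member and 229 held 5 or more. Gse1 held 28 members, Zmiz1 held 26, Pde4d held 22, and Arid1b and Tex14 held 14 each. The read-through model Gm20388 on chromosome 8 spans several genes, Gse1 among them. A peak within several genes was assigned to the shortest, so the 48 members of Gm20388 do not include those of Gse1. The median distance to the nearest coding TSS was 28.9 kb, and 549 members were over 100 kb away. Intron 1 held 1248 members, intron 2 held 789 and later introns held 2987, while 251 fell in no intron of a basic transcript. Within 1 kb of a noncoding TSS there were 177 members, and 411 touched an exon with some base of the peak. Of the 28 Gse1 members 24 fell in no intron of a basic transcript, and 10 of the 14 in Tex14 lay near a noncoding TSS.

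Members were sparse and poor in CpG. Their total count had a median of 164 (range 100 to 2516) and the median count per library was 3, so single libraries give coarse values. At 51.8% their median GC content matched that of distal intergenic peaks with the same count limit and was below the 64.5% of promoter peaks. The median number of CpG sites was 4 against 25 in promoters, and 149 members had 15 or more. Words for RUNX occurred in 43.5% of members, 38.8% of distal intergenic peaks and 13.0% of promoter peaks. The GATA word occurred in 13.6%, 13.0% and 3.92%, so members and distal intergenic peaks were close. All 10 members with the highest levels sat in introns of Gm42906, Gphn, Itpkb, Chd9, Kif1bp, Prdm2, C87436, Fam107b, Casz1 and Pebp4. The Gm42906, Chd9 and Pebp4 peaks lay 36, 23 and 199 bp from a noncoding TSS.

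Levels are given as CPM, the count scaled to a fixed total of the counts in the 31448 peaks after TMM scaling. Total counts ranged from 39379 to 1079233 per library, and GM-CSF clones 19 and 20 were shallow (114885 and 88234 in the control line, 40876 and 39379 in the KO line). One count was therefore worth 13.8 and 17.3 CPM in those control lines. Promoter peaks of 12 GMP marker genes, without TMM scaling, summed to a mean of 536 CPM in SCF control lines (361 to 670 over libraries) and 295 in GM-CSF control lines (231 to 332). Among them the group mean of Cd34 was 40.5 CPM in SCF and 3.16 in GM-CSF control lines, and that of Mpo was 57.4 and 15.6, without a test. Prtn3 (10.5 and 12.9) and Csf1r (5.80 and 10.4) went the other way, and Elane was level (8.32 and 8.30). In KO lines the 12 genes summed to 578 CPM in SCF (411 to 727) and 342 in GM-CSF (212 to 643). There Elane, Prtn3, Spi1 and Irf8 had higher group means in GM-CSF lines. T cell markers summed to 14.8 CPM in SCF control lines (0 to 40.2) and 34.4 in GM-CSF control lines (17.4 to 48.8), B cell markers to 78.2 and 38.2, and erythroid markers to 34.0 and 30.4. Mast cell and basophil markers summed to 55.5 and 29.3, and non-hematopoietic markers to 56.4 and 45.5. The part of these differences in the results by cytokine was not tested. In bulk libraries, fewer open cells and less signal per cell cannot be told apart. The share of counts on the X chromosome, relative to that of the median library, was at or above 0.961 in clones 1 to 18 and at or below 0.915 in clones 19 to 29, so clones 23 to 29 are also given alone as the SCF reference.

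The first comparison asked which intronic members changed after Tet2 loss in SCF clones, with lines paired by clone. Very few of them were called. With the quasi-likelihood test of edgeR and Benjamini-Hochberg adjustment over all 31448 peaks, 1 of 5275 members was higher in KO lines and 4 were lower at an adjusted p of 0.01 or less. Over all peaks, 0.811% were called higher and 0.0318% lower. Promoter peaks gave 227 higher and 4 lower of 12309, and distal intergenic peaks gave 10 and 2 of 6151. The median SE was 0.27 for members, 0.26 for distal intergenic peaks and 0.14 for promoter peaks. A change of a given size was therefore harder to call in members than in promoters, and few calls do not mean few changes. At an unadjusted p under 0.05 there were 375 members (7.11%), beside 7.36% of distal intergenic and 16.0% of promoter peaks. The median log2 fold change of members was -0.076, beside -0.042 over all peaks and 0.0072 over promoters. Members with a negative value numbered 3272 and those with a positive value 2003. A correction for GC content per library gave 4 higher and 4 lower, and RLE scaling, which moved the median of all peaks to -0.11, gave 0 and 5. With the percentage of counts in promoters as a covariate edgeR called 0 and 0 (316 at an unadjusted p under 0.05), and DESeq2, adjusted over all peaks, called 0 higher and 2 lower, in Ksr1 and Fam222a. In clones 1 to 18 alone and in clones 23 to 29 alone edgeR also called 0 and 0, with 346 and 227 at an unadjusted p under 0.05.

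**Figure D1:**
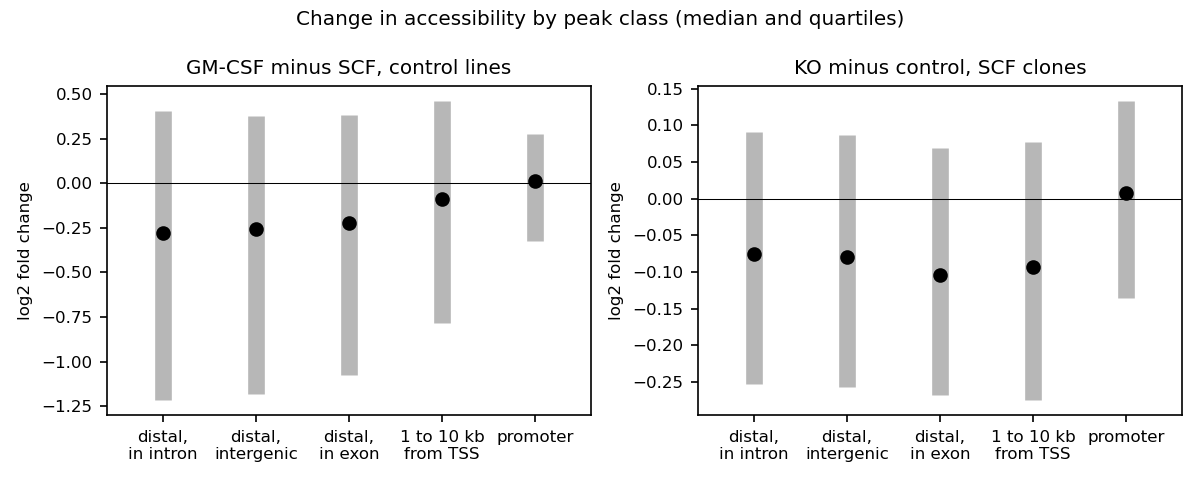
Fitted log2 fold changes of all tested peaks in 5 genomic classes, for GM-CSF against SCF control lines (left) and for Tet2 KO against control lines of SCF clones (right), with points at the median and grey bars over the quartiles. Distal intronic members have quartiles of -1.22 and 0.41 on the left and of -0.25 and 0.091 on the right, where the axis is finer.

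The member called higher was in intron 4 of Acer1, which encodes an alkaline ceramidase. Control lines of the 24 SCF clones spanned 37.4 to 177 CPM (median 80.0) and KO lines spanned 41.2 to 185 (median 123). The ranges overlapped almost fully, and the KO line was above its own control in 16 of 24 pairs. The log2 fold change was 0.38 (SE 0.096, edgeR adjusted p = 0.00965). The peak lies 95 bp from the TSS of the noncoding gene AC073683.1, and with members near noncoding TSSs, in Gm20388 or outside introns of basic transcripts left out, an alternative chosen after seeing the data, 0 were higher and 4 lower of 4814.

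Ksr1, a scaffold protein of the RAS-MAPK pathway, held the lower member with the smallest p-value, in intron 1. Its level had a median of 28.5 CPM in control lines (0 to 98.4) and 13.8 in KO lines (0 to 29.0). The KO line was lower in 19 pairs and higher in 4, and the log2 fold change was -0.91 (SE 0.20, edgeR adjusted p = 0.00123). A member in intron 1 of Fam222a had a median of 17.4 CPM in control lines (0 to 44.6) and 5.39 in KO lines (0 to 18.0). It was lower in 20 of 24 KO lines and had no counts in 8 of them, with a log2 fold change of -1.27 (SE 0.28, edgeR adjusted p = 0.00161).

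In Uggt1, which encodes a glucosyltransferase that checks glycoprotein folding, the member in intron 29 of 40 had a median of 24.4 CPM in control lines (0 to 84.3) and 12.1 in KO lines (0 to 38.3). The KO line was lower in 20 pairs, and the log2 fold change was -0.91 (SE 0.22, edgeR adjusted p = 0.00463). Kcnn3 encodes a calcium-activated potassium channel, and its member in intron 2 held 41 counts over the 24 control lines and 7 over the 24 KO lines. It had no counts in 17 KO lines and in 7 control lines, with a log2 fold change of -2.05 (SE 0.51, edgeR adjusted p = 0.00706). GM-CSF control and KO libraries held 47 and 21 of its 116 counts, so it was a member only through them. The peak was more open in GM-CSF than in SCF control lines (log2 fold change 3.07, SE 0.38) and near the floor in SCF lines. None of these 4 members had a host promoter peak that passed the test, and the host promoters differed by -0.29 to 0.18 on the log2 scale.

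**Figure D2:**
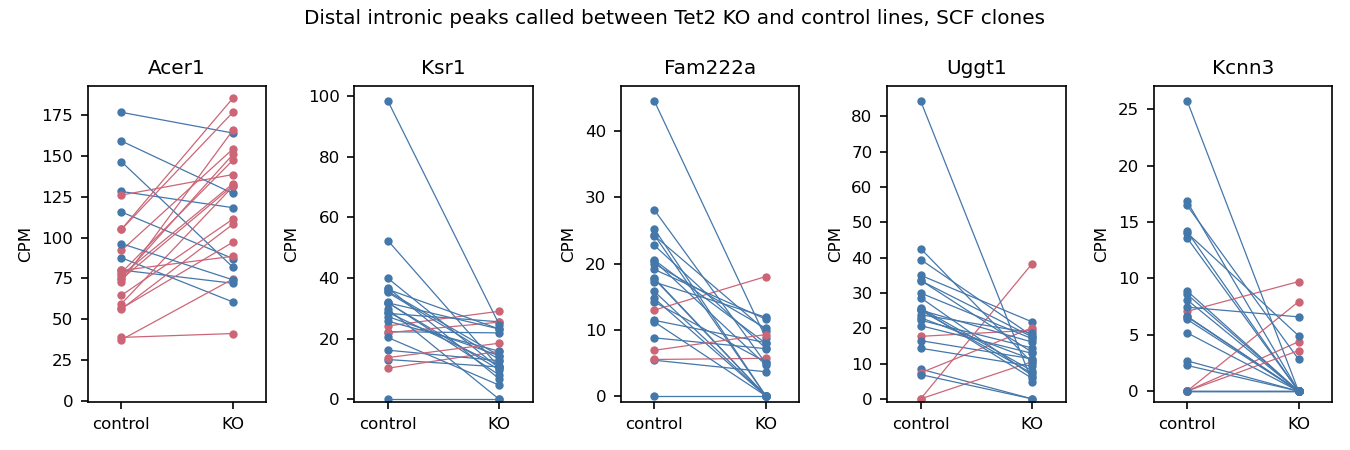
Accessibility of the 5 called members in the control and KO line of each of the 24 SCF clones, in CPM on axes that differ by panel, where each line joins the lines of 1 clone, red where the KO line is higher and blue otherwise. Most lines fall in Ksr1, Fam222a, Uggt1 and Kcnn3, and 16 of 24 rise in Acer1.

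The next members did not pass the test and are given as values. On the higher side, Casz1 had a log2 fold change of 0.35 (adjusted p = 0.0131, edgeR), Fam117a 0.46 (0.0150), Pebp4 0.32 (0.0362), Ptprs 0.55 (0.0477) and Smad3, an effector of TGF-beta signaling, 0.41 (0.0570). In each of them 18 of 24 pairs had the higher level in the KO line. On the lower side, Kif1bp had -0.96 (0.0131), Tgm3 -0.87 (0.0136), 2900026A02Rik -0.82 (0.0174), Alpk3 -1.43 (0.0211) and Gpr107 -1.18 (0.0368).

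No member was called after Tet2 loss in any of the 16 gene lists. The stem and progenitor list had 92 members in 19 host genes with a median log2 fold change of -0.088, and the monocyte and macrophage list had 25 members with a median of -0.068. Members without CpG or with 1 CpG had a median of -0.043 (n = 572) those with 7 to 14 had -0.088 (n = 1215) and those with 15 or more had -0.014 (n = 149), so the medians had no order by CpG number. Members holding the GATA word had a median of -0.0093 and those without it -0.088, while the RUNX word gave -0.056 and -0.093.

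The second comparison set GM-CSF control lines against SCF control lines. Here intronic members differed widely: 320 of 5275 were more open in GM-CSF lines (6.07%) and 562 were less open (10.7%), against 4.45% and 7.0% of all peaks tested (edgeR, adjusted p of 0.01 or less). Promoter peaks gave 339 higher and 403 lower of 12309, which is 2.75% and 3.27%. Distal intergenic peaks gave 5.37% and 11.6%, close to the members. The median log2 fold change of members was -0.28, beside -0.068 over all peaks and 0.010 over promoters. SCF libraries supplied 90.5% of the counts in members, so the total of 100 was reached mainly in SCF and favors members that were open there. Some members called higher reached it only with GM-CSF counts. SCF control and KO libraries held 25 and 20 counts in Hivep3 and 49 and 39 in Man2b2. In Ptk2b they held 50 and 31, and in Zfp395 46 and 30. For these, high GM-CSF counts were a condition of being a member.

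A correction for GC content per library gave 412 higher and 457 lower. Against the 7 SCF clones 23 to 29, whose X share was closest to that of the GM-CSF clones, 255 were higher and 521 lower. Without the shallow clones 19 and 20, an alternative chosen after seeing the data, 308 were higher and 451 lower, and with them summed as 1 sample 349 were higher and 511 lower. The deeper GM-CSF clones weighed more: 203 were higher and 284 lower without clone 21, and 121 and 181 without clone 22. DESeq2 called 213 higher and 237 lower.

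Hivep3, a large zinc finger protein that binds enhancer motifs of the NF-kB type, held the higher member with the smallest p-value, in intron 1. Its level was 55.0, 121, 62.7 and 81.2 CPM in the control lines of GM-CSF clones 19 to 22, and at most 17.0 in the 24 SCF control lines (median 2.01, 11 of them at 0). The groups did not overlap, and the log2 fold change was 4.16 (SE 0.37, edgeR adjusted p = 3.15e-22). High GM-CSF counts were a condition of membership for Hivep3, as for Man2b2, Ptk2b and Zfp395 below. Their p-values and the distance between their groups are therefore not evidence independent of the rule. A member in intron 1 of Fam222b stood at 82.5, 156, 62.7 and 136 CPM in GM-CSF lines and at 0 to 50.5 (median 13.1) in SCF lines. All GM-CSF lines were above all SCF lines, with a log2 fold change of 2.77 (SE 0.27, edgeR adjusted p = 2.03e-19).

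Man2b2, a lysosomal alpha-mannosidase gene, had a member in intron 15 at 55.0, 34.7, 95.7 and 74.0 CPM in GM-CSF lines and 0 to 33.2 (median 6.86) in SCF lines. Again no line overlapped, with a log2 fold change of 3.25 (SE 0.33, edgeR adjusted p = 1.39e-17). Cdk6, the G1 cyclin-dependent kinase gene, had a member in intron 5 at 55.0, 17.3, 89.1 and 100.3 CPM in GM-CSF lines and 0 to 40.5 (median 13.8) in SCF lines. Clone 20 lay inside the SCF range, and the log2 fold change was 2.55 (SE 0.29, edgeR adjusted p = 1.33e-14). Ptk2b, a tyrosine kinase gene of integrin and calcium signaling, had a member in intron 1 at 13.8, 121, 49.5 and 66.8 CPM in GM-CSF lines and 0 to 42.2 (median 5.89) in SCF lines. Clone 19 lay inside the SCF range, with a log2 fold change of 2.88 (SE 0.36, edgeR adjusted p = 3.41e-12).

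The other members of this group, taken as the 12 with the smallest p-values at above-median level, were in 3110082I17Rik, Fanca of the Fanconi anemia repair complex, Rgl1, Zfp395, the glypican gene Gpc6, the transporter gene Abcg3 and the metalloproteinase inhibitor gene Timp2. Their log2 fold changes ran from 1.98 in Abcg3 to 2.79 in Zfp395. Over all 320 higher members the change ran from 0.72 to 4.17, and 102 were 4-fold or more. Their median level was 9.70 CPM in SCF and 34.9 in GM-CSF control lines.

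Among lower members, Mdga1, which encodes a GPI-anchored adhesion protein, had the smallest p-value. The member in its intron 1 stood at 28.1 to 151 CPM (median 84.0) in SCF control lines, and at 27.5, 0, 0 and 2.39 CPM in GM-CSF lines, which held 3 counts in all. No GM-CSF line reached the SCF range, and the ratio of the levels was 0.040 (95% interval 0.0082 to 0.117 from counting error, edgeR adjusted p = 2.32e-17). The member in Gse1 fell in no intron of a basic transcript. It stood at 28.1 to 121 CPM (median 89.5) in SCF lines and at 13.8, 17.3, 13.2 and 0 CPM in GM-CSF lines. The groups did not overlap, with a log2 fold change of -3.57 (SE 0.39, edgeR adjusted p = 8.76e-16).

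Egln3 encodes a prolyl hydroxylase that marks hypoxia-inducible factors for breakdown, and the member in its intron 1 stood at 70.3 to 140 CPM (median 120) in SCF lines. GM-CSF lines had 13.8, 17.3, 19.8 and 19.1 CPM, from 1, 1, 6 and 8 counts, and all were well under every SCF line. The log2 fold change was -2.54 (SE 0.30, edgeR adjusted p = 5.83e-14). Erg, an ETS factor that maintains stem cells, had a member in intron 3 at 22.0 to 94.5 CPM (median 62.5) in SCF lines and at 0, 17.3, 0 and 4.77 in GM-CSF lines. These values did not overlap and rest on 3 GM-CSF counts, with a ratio of 0.054 (95% interval 0.011 to 0.158 from counting error, edgeR adjusted p = 2.04e-13).

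A member in intron 1 of Lrrc38, an auxiliary subunit of large-conductance potassium channels, had no counts in any GM-CSF control line. SCF lines held 18.1 to 80.2 CPM (median 43.8). With a floor of 3 counts over the GM-CSF group, it was at least 12.1-fold lower (edgeR adjusted p = 1.24e-11). A member in intron 3 of Spon1, which encodes F-spondin of the extracellular matrix, stood at 33.3 to 78.2 CPM (median 55.1) in SCF lines and at 0, 17.3, 0 and 4.77 in GM-CSF lines, a ratio of 0.065 (95% interval 0.013 to 0.190 from counting error, edgeR adjusted p = 3.56e-11). Ldlrad4, Ubash3a, Ppa2, Ttll11, Tcerg1l and Tmbim7 completed the 12, with 1 to 4 GM-CSF counts each, and Tcerg1l was the 1 among them whose groups overlapped. Of the 562 lower members, 115 had no counts in any GM-CSF control line.

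**Figure D3:**
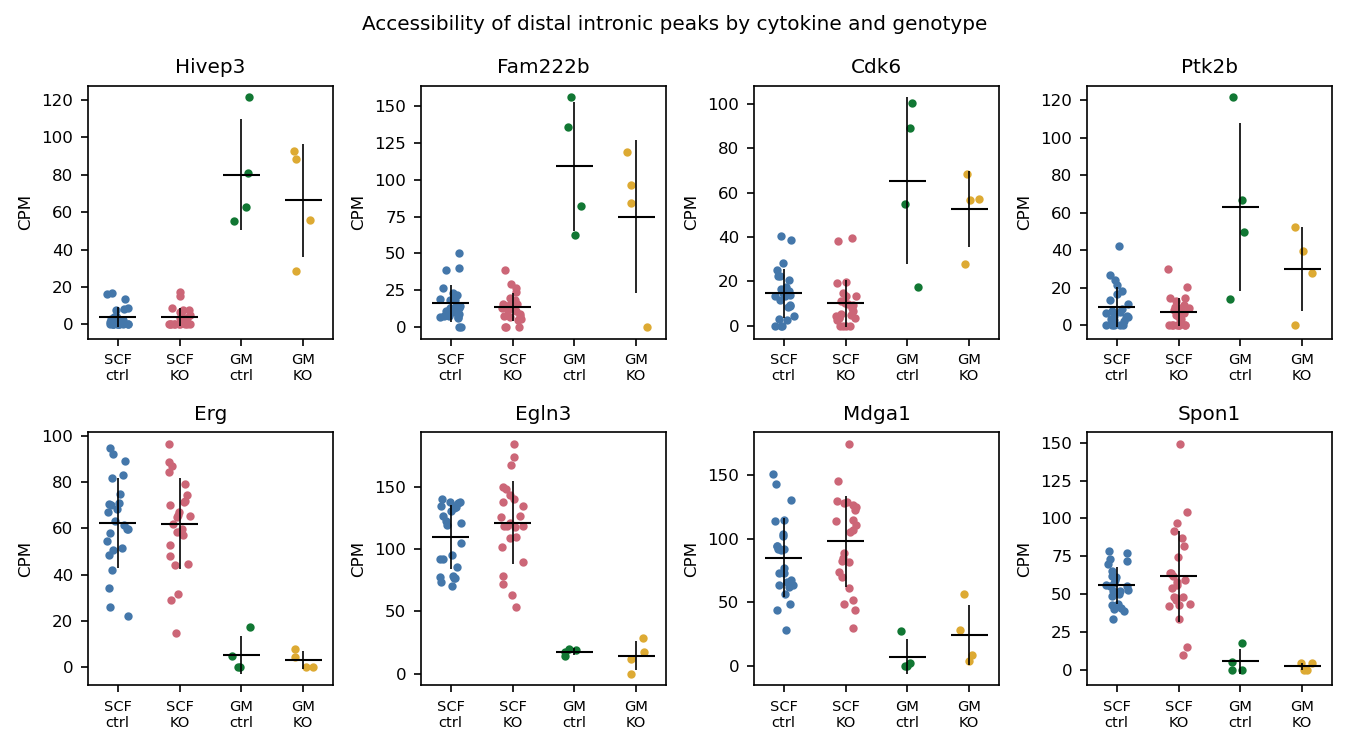
Accessibility in CPM of 8 named members in each library of the 4 groups (GM, GM-CSF), with points for libraries, horizontal bars at the group mean and vertical bars over 1 SD on either side. Hivep3, Fam222b, Cdk6 and Ptk2b have higher group means in GM-CSF lines of both genotypes, although a GM-CSF KO line is at 0 for Fam222b and for Ptk2b, and Erg, Egln3, Mdga1 and Spon1 have higher group means in SCF lines of both genotypes.

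KO lines gave the same comparison in libraries that the control comparison did not use, though from the same clones. In them 257 members were higher in GM-CSF and 320 lower, against 3.05% and 4.23% of all peaks tested. The median log2 fold change was -0.30 over members and -0.15 over all peaks. Without clone 21 there were 94 higher and 82 lower, without clone 22 there were 88 and 93, and DESeq2 called 149 and 82. Of the 320 members higher in control lines, 195 were also called higher in KO lines (60.9% of the control list and 75.9% of the KO list). Of the 562 lower, 247 were also called lower (44.0% and 77.2%). The sign was the same in KO lines for 316 of 320 and 559 of 562, and none was called in the opposite direction. Their median log2 fold change in KO lines was 1.74 and -2.18.

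Hivep3 stood at 28.3, 56, 88.7 and 92.4 CPM in the GM-CSF KO lines and at most 17.4 in SCF KO lines, with a log2 fold change of 4.27 (SE 0.42, edgeR adjusted p = 2.61e-20). Lrrc38 had no counts in any GM-CSF KO line and was at least 10.5-fold lower. Ikzf1, which encodes the lymphoid and myeloid zinc finger factor IKAROS, had a member in intron 3 at 56.7, 28.0, 80.6 and 145 CPM in GM-CSF KO lines and 0 to 54.1 (median 12.7) in SCF KO lines. Clone 20 fell inside the SCF range, with a log2 fold change of 2.50 (SE 0.31, edgeR adjusted p = 8.43e-13), and it was 1.84 in control lines (adjusted p = 6.89e-08).

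Etv6, an ETS repressor gene of blood stem cells, had a member in intron 3 that stood at 42.1 to 110 CPM (median 75.9) in SCF control lines and 0, 0, 9.90 and 23.9 in GM-CSF control lines. It was lower in both genotypes, with a log2 fold change of -2.36 in control lines (SE 0.33, edgeR adjusted p = 2.34e-10) and 2 counts in all over GM-CSF KO lines. Zbtb16, which encodes the zinc finger repressor PLZF, had a member in intron 2 at 28.1 to 101 CPM (median 61.7) in SCF control lines and 13.8, 0, 6.60 and 7.16 in GM-CSF lines. Its groups did not overlap, and the log2 fold change was -3.05 (SE 0.42, edgeR adjusted p = 2.24e-10).

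**Figure D4:**
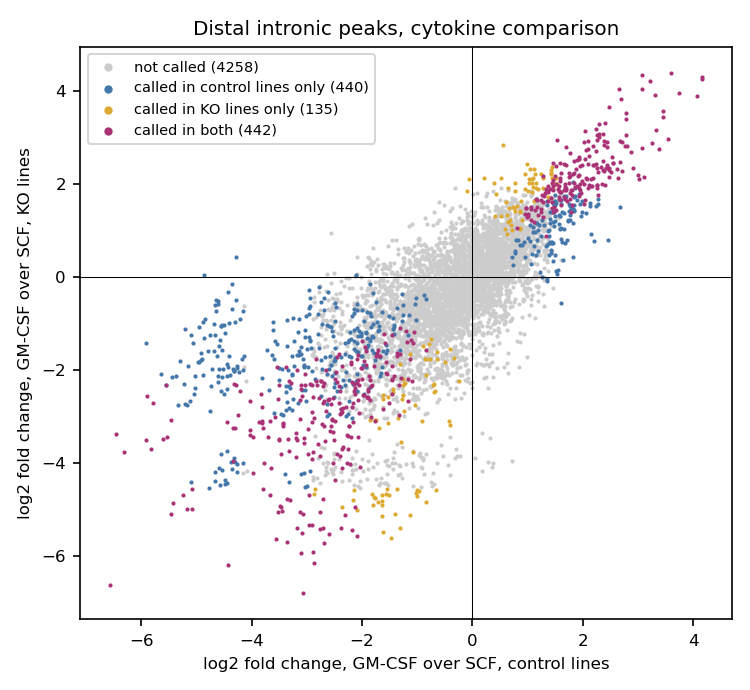
Log2 fold change of GM-CSF over SCF for each member in control lines (horizontal axis) and in KO lines (vertical axis), with colors for members called in control lines only, in KO lines only, in both or in neither, and their numbers in the legend. Of members called in control lines, 316 of 320 higher and 559 of 562 lower have the same sign in KO lines, which come from the same clones.

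The words held by called members differed by direction. The GATA word was in 28.8% of members lower in GM-CSF control lines, in 12.1% of members not called and in 6.88% of those higher, with 12.6% over all 297361 peaks of the same length. RUNX words were in 55.2%, 42.6% and 35.3%, against 28.3% of all peaks. The E-box CAGCTG, bound by E proteins, was in 35.4%, 25.6% and 24.4%, against 22.3%. The order was reversed for C/EBP, whose word was in 38.1% of lower, 43.1% of uncalled and 55.6% of higher members, against 40.6% of all peaks. PU.1 words were in 45.4%, 46.8% and 54.4% (36.6% of all peaks), and AP-1 words in 13.0%, 15.9% and 19.7% (12.2% of all peaks).

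In KO lines the GATA word was in 30.6% of lower and 8.95% of higher members, RUNX words in 54.1% and 34.6%, and C/EBP words in 38.4% and 56%. The STAT word TTCNNNGAA was in 9.38% of higher and 9.43% of lower members in control lines and in 8.74% of all peaks. Members with the GATA word had a median log2 fold change of -0.94 in control lines, and those without it had -0.21. Median GC content was 51.8% in the higher, lower and uncalled members alike, while the median total count was 160, 294 and 156. All 23 words were searched on both strands, some overlap (GAGGAA holds GGAA, which was in 98.4% of members), and no share was tested.

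**Figure D5:**
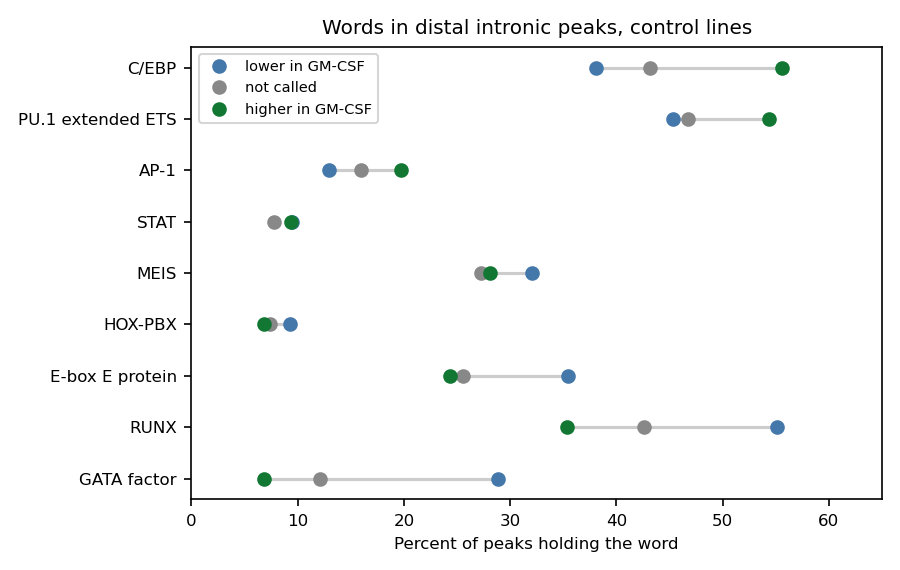
Percent of members that hold each of 9 words, for members lower, not called and higher in GM-CSF against SCF control lines. The GATA, RUNX and E-box words are most frequent in lower members and the C/EBP, PU.1 and AP-1 words in higher members, while the STAT word is in 9.43% of lower and 9.38% of higher members.

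The share of members called lower in GM-CSF control lines was highest in the bin farthest from a coding TSS. The called-lower share was 8.26% at 10 to 20 kb (n = 1720), 10.8% at 20 to 50 kb (n = 2052), 11.2% at 50 to 100 kb (n = 954) and 16.6% beyond 100 kb (n = 549). The called-higher share was 6.80%, 5.80%, 5.35% and 6.01%, without an order. Median total counts in these bins were 170, 163, 160 and 169, and no share was tested.

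In control lines, most host promoters differed by less than 0.5 on the log2 scale where a member was called. Promoters in general differed little, with quartiles of -0.32 and 0.28 over all 12309 promoter peaks. Of the 320 higher members 248 had a promoter peak of the host gene in the fit, and 175 of those promoter peaks differed by less than 0.5 on the log2 scale. In 17 the promoter was called higher too (6.85%, beside 2.75% of all promoter peaks) and in 5 it was called lower. Of the 562 lower members 443 had such a peak, of which 263 differed by less than 0.5, 61 were called lower and 3 higher. The 61 are 13.8%, beside 3.27% of all promoter peaks called lower. In KO lines 138 of 211 host promoters of higher members and 126 of 256 of lower members differed by less than 0.5. There 2.37% and 10.2% of them were called in the direction of the member, beside 1.46% and 2.75% of all promoter peaks. Zbtb16 and Mdga1 were among hosts whose promoter fell with the member, by 3.53 and 3.34 on the log2 scale (edgeR adjusted p = 1.54e-06 and 1.34e-05). The Hivep3, Egln3 and Gse1 promoters differed by -0.21, 0.16 and 0.10 and did not pass the test. Several promoters can serve 1 host, and an intronic peak need not act on its host.

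Called members of 1 gene did not always move one way. Among hosts with called members, 245 had only higher, 412 only lower and 44 had both. Among the 127 hosts with 2 or more called members, 83 had them in a single direction, a share that was not compared with called members of different genes. Stxbp4 had all 5 of its members lower, Itga9 had 4 of 10 lower, and Ksr1 had 3 of 11 higher. In intron 1 of Egln3, a member about 3 kb from the lower one stood at 27.5, 52.0, 33.0 and 31.0 CPM in GM-CSF lines and 2.87 to 32.4 (median 11.9) in SCF lines. That neighbor was higher, with a log2 fold change of 1.46 (SE 0.39, edgeR adjusted p = 0.00245). Cdk6 likewise had 1 higher and 2 lower of 9 members, all 3 called members in intron 5. Cxcr5, a B cell chemokine receptor gene, had 1 member higher by 2.42 and another lower by a log2 change of -1.79.

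Gene lists were described by their member counts in control lines, beside 6.07% higher and 10.7% lower over all members. Of 92 members in stem and progenitor genes 19 were lower and 1 higher, with a median log2 fold change of -0.83 beside -0.28 over all members. The lower ones included 3 of 7 in Zbtb16, 2 of 5 in Erg, and 1 each in Etv6, Runx1, Runx2 and Msi2. The higher one was in Cdk6, which the cell cycle list also holds. In KO lines 9 of the 92 were lower and 2 higher, with a median of -0.88. There 1 member of Zbtb16 and 2 of Erg were lower, Runx1 had 1 higher and 1 lower, and the other higher one was in Cdk6. Runx1 encodes the RUNX factor of definitive hematopoiesis, and its lower member in intron 2 stood at 14.1 to 109 CPM (median 64.6) in SCF lines and 13.8, 34.7, 23.1 and 16.7 in GM-CSF lines. Some SCF lines fell in the GM-CSF range, and the log2 fold change was -1.71 (SE 0.32, edgeR adjusted p = 4.31e-06). A member in intron 9 of Flt3, a receptor of early progenitors and dendritic cell precursors, was lower as well (-2.57, SE 0.45, edgeR adjusted p = 1.35e-06).

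Effector genes of phagocytes had 5 of 12 members higher and 1 lower in GM-CSF control lines, with a median log2 fold change of 0.88. In KO lines 2 were higher, in Ncf4 and Alox5, and 1 was lower, in Vav1, with a median of 0.71, while Itgb2 and Syk had no call there. The higher ones in control lines were in Itgb2, the beta2 integrin chain, Ncf4 of the NADPH oxidase, Alox5 of leukotriene synthesis, and both members of Syk, a kinase downstream of Fc receptors. In Alox5 the member stood at 41.3, 52.0, 33.0 and 40.6 CPM in GM-CSF lines and at 0 to 26.7 (median 14.9) in SCF lines, without overlap and with a log2 fold change of 1.36 (SE 0.36, edgeR adjusted p = 0.00225). Vav1, a signaling gene of blood cells, had the lower one in both genotypes. Among 25 monocyte and macrophage members 3 were higher (Fn1, Abca1 and Zeb2) and 2 lower, 1 of them a second member of Abca1, and in KO lines 2 were higher and 1 lower.

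Among interferon response genes, a member of Irf2, an interferon regulatory factor, was higher. In cytokine signaling genes 2 members were lower, in Il6ra and Tgfbr2. In DNA methylation genes 2 of 12 were higher, in Zbtb38 and Mbd5, and 2 were lower, both in introns of Dnmt3a, the de novo methyltransferase, and KO lines also gave 2 and 2. No member lay in Tet2 itself.

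Other lists stood as follows in control lines. Dendritic genes had 0 higher and 4 lower of 14, lymphoid genes 2 and 4 of 29, mast cell, basophil and eosinophil genes 1 and 2 of 8, and erythroid and megakaryocyte genes 0 and 1 of 12. Inflammatory NF-kB genes had 0 and 1 of 9, chromatin regulators 2 and 3 of 62, cell cycle genes 1 and 3 of 18 and neutrophil genes 0 and 0 of 1. A list of genes that the study itself chose on related samples had 1 and 2 of 12 and is not independent evidence of direction. In KO lines the counts higher and lower were 0 and 2 for dendritic, 2 and 2 for lymphoid, 2 and 3 for chromatin and 2 and 1 for cell cycle genes, and 2 and 1 for the list the study chose. Mast cell, basophil and eosinophil, erythroid and megakaryocyte, NF-kB and neutrophil genes had 0 and 0.

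The last comparison asked whether members changed after Tet2 loss in the 4 GM-CSF clones and whether that change differed from the 1 in SCF clones. A joint edgeR fit of the 56 libraries, blocked by clone, called 0 members higher and 0 lower in GM-CSF clones (0.0% and 0.0% of all peaks tested), with 222 at an unadjusted p under 0.05. The difference between cytokines also gave 0 and 0 (0.0% and 0.0%), with 204 at an unadjusted p under 0.05. The 222 and 204 are 4.21% and 3.87% of members, beside 4.92% and 4.29% of promoter peaks. DESeq2 called 0 members in both, with 98 and 133 at an unadjusted p under 0.05. The median SE of a member was 0.82 for the GM-CSF change, beside 0.27 for the SCF change, so moderate changes were not detectable at this depth.

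The smallest p-value for the difference was at a member in intron 1 of Fam196b, which also lies within Dock2, a RAC exchange factor gene of leukocytes. GM-CSF KO lines stood at 85.0, 56, 40.3 and 66.0 CPM for clones 19 to 22, and their control lines at 13.8, 34.7, 16.5 and 23.9. In SCF clones the median was 13.2 CPM in control lines (0 to 39.3) and 5.76 in KO lines (0 to 19.7). Every GM-CSF pair was higher in the KO line, but the difference in log2 fold change of 2.43 (SE 0.56) did not pass (edgeR adjusted p = 0.42).

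Clones also differed among themselves in SCF. The 10 most variable members were chosen by the spread of their levels over the 24 SCF control lines. They were also selected on level, at or above the median of the mean CPM over all 56 libraries. That mean includes the KO lines and the GM-CSF lines, so the KO lines were not kept out of the choice. Hivep3 had a mean of 3.89 CPM in SCF control lines and 80.1 in GM-CSF control lines, against a median level of 11.6. The control levels of the 10 members were then compared with the KO lines of the same clones. Over all 5275 members the median r between the lines of a clone was 0.098, and 180 members had an r over 0.5, as a description of sparse counts. In Mtus1 the lines of a clone went together, with Pearson r = 0.76 over 24 clones (permutation p with Benjamini-Hochberg adjustment 0.0001, from the smallest p that 100000 resamples can give) and Spearman rho = 0.66 (adjusted permutation p = 0.0068). Without the 2 clones farthest from the median r was 0.60, and it was 0.81 in clones 1 to 18 and 0.70 in clones 23 to 29. Slc28a3, a nucleoside transporter gene, had r = 0.65 (adjusted permutation p = 0.0039) and rho = 0.52 (adjusted permutation p = 0.0265), Znrf1 had r = 0.52 (adjusted permutation p = 0.0232), and Fanca had r = 0.48 (adjusted permutation p = 0.0428). For Znrf1 and Fanca r fell to 0.40 and 0.39 without the 2 farthest clones. Clone 27, a shallow one, had the highest control level in Mtus1, Znrf1 and Fanca. The other 6 members, in Ptk2b, Zfhx3, Zfp395, Man2b2, Hivep3 and Jakmip1, had r of -0.13 to 0.36 and did not pass.

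The share of autosomal counts that fell in members gave a summary without a test. It was 5.47% ± 0.70 (SD, n = 24) in SCF control lines and 5.31% ± 0.76 (n = 24) in SCF KO lines, 4.50% ± 0.39 (n = 4) in GM-CSF control lines and 4.24% ± 0.58 (n = 4) in GM-CSF KO lines. Paired by clone, KO minus control was -0.17 percentage points in SCF, higher in 11 pairs and lower in 13, and -0.26 in GM-CSF, lower in 4 of 4 pairs. Both differences were smaller than the SD between pairs, which was 0.67 and 0.36. Promoter peaks held 43.0% in SCF control and 39.8% in GM-CSF control lines.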

How the data were processed

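Bulk ATAC-seq was measured in 56 libraries of 1000 cells. The authors deposited raw counts for each library over a fixed peak set, without normalization. Bowtie2 alignment to mm10 is named by the labels, as are SAMtools and Picard. Not given in the sources used here were tool versions, the handling of duplicates and the unit counted (fragments or insertions). Peaks came from single-cell ATAC-seq data of the same study, with summits from MACS2, and from ImmGen, so none was called in these libraries.

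Peak positions were read against GENCODE vM21 (basic set). Every peak with a total of 100 or more counts (31448) was tested with edgeR 4.0.16 (quasi-likelihood, TMM scaling, limma 3.58.1, R 4.3.3). The p-values were adjusted by Benjamini-Hochberg over all of them and called at 0.01 or less, and members were read from those fits. KO was compared with control with the clone as a block, since both lines of a clone come from the same founder cell. Cytokines were compared without a block. DESeq2 1.42.0 served as an alternative. Standard errors were taken from the fold change and its F statistic. Intervals of counts are exact 95% binomial intervals of the counts in each group, and floors use 3 counts. They cover counting error only. Statistical summaries and figures were made in Python 3.11.15 (pandas 2.3.3, matplotlib 3.10.9, scipy 1.17.1, numpy 2.4.6). The edgeR steps were tested on simulated data.

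Named members are the 12 with the smallest p-values in each direction among called members at or above the median level, at most 1 per host gene. The level was the mean CPM over all 56 libraries, so high GM-CSF values could bring a member past it. Where fewer than 5 passed, all that passed and the next 5 are given. The 10 members with the highest level, the 10 most variable ones and the leading members of each gene list were added. Results for some items, a gene list among them, are not reported here. The members, words and gene lists were chosen with earlier results of these data known. Each clone counts as 1 replicate, and p-values measure the spread between clones, which the methods trace to a Tet2 fl/fl mouse, not between donor mice. No pair of libraries was identical. Of 564 pairs of libraries within a group, 16 differed by no more than sampling noise (chi-square p of 0.05 or more), 12 of them with a shallow library. No library was dropped. Clones 19 and 20 were such a pair in control and in KO lines and were also summed as 1 sample. In KO lines clone 19 was also such a pair with clone 21 and with clone 22, and SCF clones 13 and 16 were another. Whether these clones are separate samples was not tested further.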

Additional observations from a re-analysis of the deposited data

Results flagged for a closer look

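The GM-CSF groups hold 4 libraries each, and in 50 such groups of values (the named members of the cytokine comparisons and the share of counts in members) the highest or lowest library was compared with the others by Dixon's ratio. A library stood apart in 8 of them. Chance gives about 1 group in 20 for continuous values, a rate that does not hold for groups with several libraries at 0, where the ratio is high whatever the count. Among members that were more open in GM-CSF, the Fanca member stood at 90.7 CPM in the control line of clone 22, above 52.0 to 55.0 CPM in the other 3 control lines, and SCF control lines ran from 0 to 56.2.

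The other 7 were members less open in GM-CSF, where 1 library held counts and the others held few or none. In control lines, Mdga1 stood at 27.5 CPM in clone 19 (2 counts), Ldlrad4 at 3.30 in clone 21 (1 count), and Ppa2 and Ttll11 at 4.77 each in clone 22 (2 counts each). In KO lines, Tcerg1l stood at 8.06 CPM in clone 21 (2 counts), Etv6 at 28.0 in clone 20 (1 count) and Ttll11 at 28.3 in clone 19 (1 count). Ldlrad4, Ppa2, Ttll11 in control lines and Tcerg1l in KO lines had no counts in the other 3 libraries, and all 7 rest on 1 or 2 counts in the library that stood apart.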

How the results depend on the processing

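Calls after Tet2 loss in SCF clones (1 higher, 4 lower) changed with most settings. Members called higher numbered 0 where no base of a peak lay in an exon, with RLE scaling, with the filterByExpr filter (327 members tested), with a total of 20 as filter, in clones 1 to 18, in clones 23 to 29, without clones 12 and 26 and with promoter share as covariate. They numbered 2 without shallow clones and 4 with the GC correction. Members called lower numbered 1 with filterByExpr, 0 with a total of 20 as filter, in clones 1 to 18, in clones 23 to 29 and with promoter share as covariate, and 2 without clones 5, 13 and 16 and without clones 12 and 26. The control lines of clones 5, 13 and 16 had a raised share of counts on chromosome 1 (1.20, 1.14 and 1.12 relative to the median library). Without the pairing of lines by clone (no replicate block) 0 were higher and 4 lower. DESeq2 with its own filtering gave an adjusted p to 9 members and no count was taken from it; adjusted over all peaks, it called 0 and 2. Leaving out members near noncoding TSSs, in Gm20388 or in no basic intron gave 0 higher. Both of these last alternatives were chosen after seeing the data.

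Between cytokines in control lines (320 higher, 562 lower), higher members numbered 203 beyond 20 kb, 129 with a total of 200, 99 with filterByExpr (1118 members tested), 108 with a total of 20, 94 with no filter, and 213 or 212 with DESeq2 with or without its own filtering. Lower members numbered 276 with filterByExpr, 233 with a total of 20, 181 with no filter and 237 or 232 with DESeq2. Leaving out each GM-CSF clone gave 121 to 320 higher and 181 to 531 lower. In KO lines (257 higher, 320 lower), higher members numbered 161 beyond 20 kb, 106 with a total of 200, 27 with filterByExpr (566 members tested), 75 with a total of 20, 64 with no filter and 149 with either form of DESeq2. Lower members numbered 141, 91, 79 and 82 with filterByExpr, a total of 20, no filter and either DESeq2. Leaving out each GM-CSF clone gave 88 to 272 higher and 82 to 279 lower. Stricter member rules and filters leave fewer members to count, and looser filters adjust over more peaks. For other settings the cause was not tested.

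The change in GM-CSF clones and the difference between cytokines gave 0 calls under every alternative run, without the replicate block too (213 and 201 members at an unadjusted p under 0.05, edgeR). The share of counts in members, GM-CSF minus SCF, was -2.18 percentage points in control and -2.78 in KO lines with counts outside promoters as denominator, against -0.97 and -1.06. Correlated variable members numbered 4 in all clones, 1 in clones 1 to 18 and 0 in clones 23 to 29, and r for Zfhx3 was 0.038 in clones 1 to 18 against -0.038 in all clones. Of 1232 checks of named members, 1180 kept their direction and side of the threshold, 42 lost the call, 9 gained one and 1 changed sign. The kept ones include 108 for the change in GM-CSF clones and 106 for the difference between cytokines, where no member had a call to lose. Named members of the cytokine comparisons were chosen for the smallest p-values, so their checks do not speak for other called members. The Tet2 comparison in SCF clones held 32 of the lost and all 9 gained calls, against 0 lost in control and 2 lost in KO lines between cytokines. The alternative with no filter was not run for the paired fits, nor a total of 20 for the fit of all libraries.

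Depth limits single libraries most: members had a median of 3 counts per library, and clones 19 and 20 were shallow. GM-CSF values rest on 4 clones, and among the clones left out in turn, clones 21 and 22 lowered the counts most.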
